A study of Mus musculus with 6 samples.

Results

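The genes of the tubulin isotypes were followed in cardiomyocyte (CM) nuclei that carried GFP or a variant of the Hippo pathway effector YAP. The 10 members are 5 α-tubulin genes (*Tuba1a*, *Tuba1b*, *Tuba1c*, *Tuba4a* and *Tuba8*) and 5 β-tubulin genes (*Tubb2a*, *Tubb2b*, *Tubb4b*, *Tubb5* and *Tubb6*), found among the 54532 genes of the count table by matching Ensembl identifiers to these symbols in GENCODE M21. Wild-type ICR mice had received 1e+11 viral genomes of AAV9 under the skin at postnatal day 6 (P6), and hearts were taken at P9. The virus encoded GFP, YAP6SA or YAP5SA behind the cTnT promoter, which is active in CMs. YAP5SA has the serines phosphorylated by LATS kinases replaced by alanine, and YAP6SA additionally carries a serine-to-alanine change in the region that binds the TEAD transcription factors, which abolishes that binding. Nuclei were captured with an antibody to PCM1, a protein of the CM nuclear surface, and the values are therefore those of nuclear poly-A RNA. For each virus 2 libraries were made, split over 2 batches. The labels speak of 2 hearts per virus without tying a heart to a library, and the p-values measure the spread between these libraries only. Gene counts of batch 1 and batch 2 were 18832871 and 16362077 with GFP, 19615627 and 17176301 with YAP6SA, and 14552847 and 17197114 with YAP5SA.

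Microtubules are built from dimers of α- and β-tubulin, each encoded by several genes whose products differ mainly in their carboxy-terminal tails. CMs use a stable microtubule array around the nucleus and between the myofibrils, and a dividing CM has to rebuild it as a mitotic spindle. Most α-tubulins end in a tyrosine that a vasohibin enzyme can remove and the ligase TTL can restore, and the balance of these forms is known to influence the stiffness of CMs. Free tubulin also limits its own mRNA, since the factor TTC5 recognizes the start of the nascent tubulin chain and directs the mRNA to decay.

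The ends of 3 α-tubulin coding sequences are printed here because *Tuba1c*, which was higher in YAP5SA overexpressing (OE) CMs as given later, and *Tuba4a* and *Tuba8*, which were lower, differ there. Each line holds the last 39 coding bases with the stop codon, computed from the GENCODE M21 transcripts, and capitals mark the last codon before the stop.
Tuba1c: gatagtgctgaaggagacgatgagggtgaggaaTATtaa
Tuba4a: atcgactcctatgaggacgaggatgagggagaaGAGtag
Tuba8: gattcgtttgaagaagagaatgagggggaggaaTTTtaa
*Tuba1c* closed with TAT, a tyrosine codon. *Tuba4a* closed with GAG, a glutamate codon, and *Tuba8* with TTT, a phenylalanine codon. The coding sequences of *Tuba1a* and *Tuba1b* were 98.3% identical, those of *Tuba1b* and *Tuba1c* 97.9%, and those of *Tuba1a* and *Tuba1c* 97.1%. *Tuba4a* was 84.7% identical to *Tuba1a*, and *Tuba8* was 78.8% identical to it. Of the β genes, *Tubb2a* and *Tubb2b* stood closest, at 96.5%.

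This likeness limits how reads can be assigned. Windows of 100 bases that occurred in no transcript of another gene covered 34.2% of the main *Tuba1a* transcript, 27.0% for *Tuba1b* and 46.6% for *Tuba1c*. The value was 63.1% for *Tubb2a*, 72.3% for *Tubb2b*, 69.4% for *Tubb4b* and 87.5% for *Tuba8*, while *Tubb5* and *Tubb6* were unique throughout (100%). Reads that mapped to several places are left out of the gene counts, and they made up 2.90% and 3.07% of the reads with GFP, 3.43% and 3.69% with YAP6SA, and 3.39% and 4.19% with YAP5SA. Levels of *Tuba1a*, *Tuba1b*, *Tuba1c*, *Tubb2a* and *Tubb2b* are thus uncertain one by one, and the sums over the *Tuba1* genes and over the *Tubb2* genes are given beside them. *Tuba4a* (53.3% unique) overlaps the kinase gene *Stk16* on the opposite strand over 1379 exonic bases. The libraries did not keep strand, so reads from that stretch cannot be told apart by strand. *Stk16* itself had a log2 fold change of -0.01 in YAP5SA OE CMs against GFP (standard error (SE) 0.15, FDR 0.985). *Tuba8* overlaps the antisense gene *Gm15856* over 368 exonic bases, and the latter held 208 counts in the 6 libraries against 2670 for *Tuba8*. *Gm15856* had a log2 fold change of -1.93 in YAP5SA OE CMs against GFP (SE 0.64, FDR 0.055), and its reads cannot be told apart from those of *Tuba8* over that stretch. On the same strand, *Gm49450* shares 473 exonic bases with *Tuba1a* and 426 with *Tuba1b*, and it had 0 counts. Reads counted as ambiguous were left out of the gene counts, and the part of these overlaps in them was not tested.

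In GRCm38, *Tuba1b* (ENSMUSG00000023004, chr15:98931425-98934565, minus strand), *Tuba1a* (ENSMUSG00000072235, chr15:98949837-98953703, minus strand) and *Tuba1c* (ENSMUSG00000043091, chr15:99029891-99038110, plus strand) lie side by side. *Tuba4a* is at chr1:75214228-75219865 on the minus strand (ENSMUSG00000026202), and *Tuba8* at chr6:121210696-121226854 on the plus strand (ENSMUSG00000030137). *Tubb2a* (ENSMUSG00000058672, chr13:34074274-34078007) and *Tubb2b* (ENSMUSG00000045136, chr13:34126748-34130466) are neighbours on the minus strand. *Tubb4b* (ENSMUSG00000036752, chr2:25222160-25224702, minus strand), *Tubb5* (ENSMUSG00000001525, chr17:35833921-35838306, minus strand) and *Tubb6* (ENSMUSG00000001473, chr18:67390717-67402749, plus strand) stand apart. All 10 are protein-coding, and all 10 passed the filter on low counts, a median log2 CPM over 1 in at least 1 group, which kept 13323 genes. CPM stands for counts per 1e+06 counts of the library after scaling with edgeR's TMM factors. Levels of the 10 tubulin genes are ranked only as RPKM, which is CPM per kilobase of the gene's merged exons. A marker named as the most abundant of its list has the highest mean CPM over the 6 libraries, whatever its length.

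In GFP CMs, *Tuba4a* was the most abundant tubulin mRNA, at 88.7 ± 0.941 RPKM (mean ± SD, n = 2 libraries here and below). *Tubb4b* followed at 36.4 ± 0.439 RPKM, ahead of *Tuba1b* at 22.7 ± 0.448 and *Tubb5* at 18.0 ± 1.17. *Tuba8* (15.0 ± 0.403), *Tubb2a* (14.3 ± 2.04), *Tuba1a* (13.6 ± 1.12) and *Tubb6* (12.9 ± 0.762) came next in RPKM, and the ranges of neighbours in this run overlapped. *Tuba1c* was lower at 4.04 ± 0.302 RPKM, and *Tubb2b* was lowest at 1.20 ± 0.201. RPKM counts all exonic bases, so genes with few unique windows, as *Tuba1b* (27.0%) and *Tuba1a* (34.2%), can be ranked too low. Over unique windows of 100 bases, *Tuba1a* made up 10.8% and *Tuba8* 4.60% of the α-tubulin counts per length in GFP, against their RPKM order. The places of the *Tuba1* genes among the others, *Tubb4b* and *Tubb5* included, are thus not settled in any group. In YAP6SA OE CMs *Tuba4a* was again first, at 72.3 ± 5.11 RPKM, and *Tubb4b* second, at 49.4 ± 1.93. In YAP5SA OE CMs the order was another. *Tuba1b* stood first at 69.4 ± 29.8 RPKM, then *Tubb5* at 53.5 ± 21.8, *Tubb4b* at 49.8 ± 4.53, *Tuba1a* at 45.2 ± 15.5 and *Tuba4a* at 38.1 ± 12.3, and the ranges of each of these neighbours overlapped, so their order among themselves is not resolved. *Tuba8* was ninth of the 10 in that group, at 4.45 ± 2.27 RPKM, above only *Tubb2b* at 2.09 ± 0.708.

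**Figure D1:**
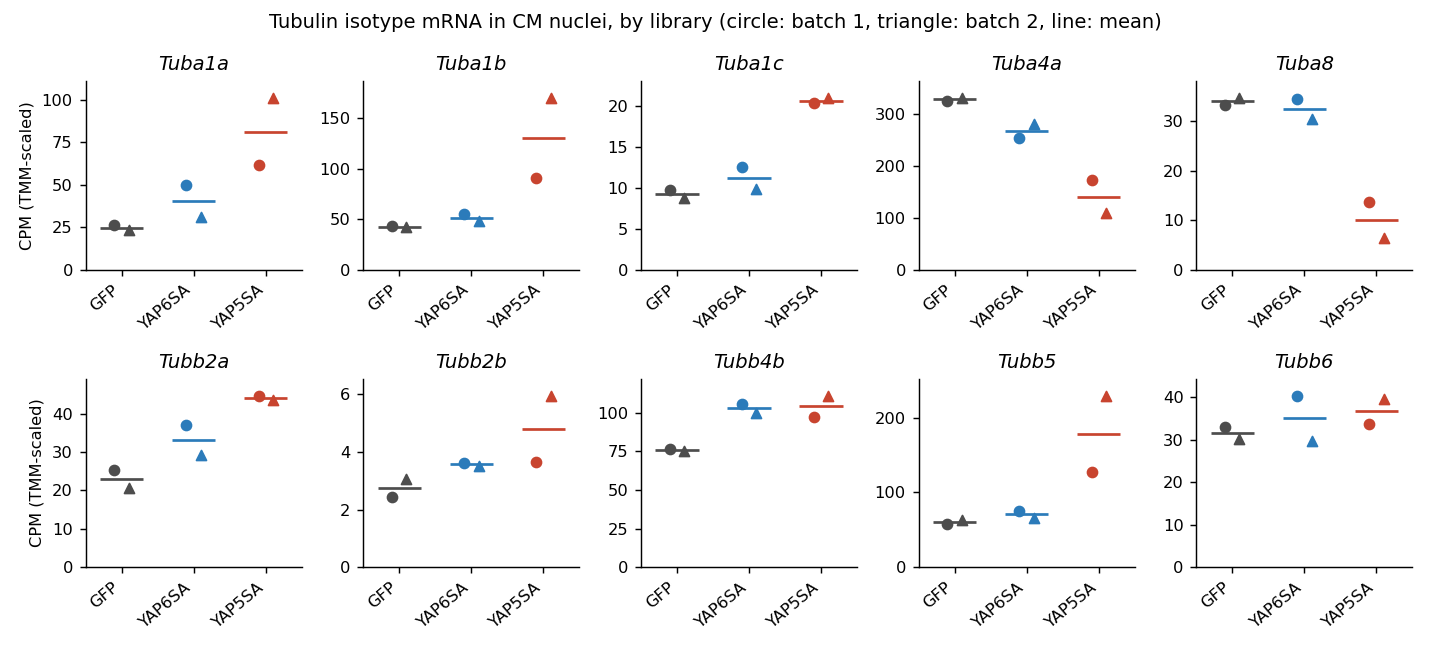
Level of each tubulin gene in CPM (vertical axes, from 0, each panel with its own scale) in the 6 libraries, with circles for batch 1, triangles for batch 2 and a line at the mean of each group. In YAP5SA OE CMs both libraries lie above both GFP libraries for 8 genes and below them for *Tuba4a* and *Tuba8*.

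Of the 10 tubulin genes, 7 passed the threshold in YAP5SA OE CMs against GFP, with 5 higher and 2 lower, in a table in which 22.0% of all genes tested were called (12.8% higher and 9.18% lower; edgeR quasi-likelihood test over all 13323 genes, batch as a term, FDR under 0.05). FDR is that test's p after Benjamini-Hochberg adjustment across the whole table. The median log2 fold change was 0.87 over the tubulin genes and -0.00 over all genes. The libraries of the 2 groups did not overlap for any of the 10, as was true of 60.9% of all genes. The YAP5SA library of batch 2 lay farther from the GFP library of its batch than did that of batch 1 for each of the 7 genes called, and within-batch values are given for the largest changes. Without the GFP library of batch 2, *Tuba1c* (1.16, FDR 0.0844) and *Tubb2a* (0.90, FDR 0.0816) were no longer called and 5 tubulin genes were, while 738 of all genes were called in place of 2931.

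The *Tuba1* genes, which supply the α-tubulin of dividing and developing cells, rose. *Tuba1b*, the most widely expressed of them, was counted at 43.1 and 41.9 CPM with GFP (batch 1, then batch 2, as throughout), at 54.8 and 48.0 with YAP6SA, and at 90.7 and 170 with YAP5SA. Both YAP5SA libraries were above all others, and that of batch 2 was the highest. The log2 fold change against GFP was 1.58 (SE 0.24, FDR 0.00234), with 1.07 in batch 1 and 2.02 in batch 2. *Tuba1a*, the α-tubulin best known from developing neurons, stood at 26.0 and 23.1 CPM with GFP, 49.7 and 30.8 with YAP6SA, and 61.6 and 101 with YAP5SA. Its groups formed 3 steps without overlap. The change in YAP5SA OE CMs was 1.74 on the log2 scale (SE 0.28, FDR 0.00298), with 1.25 and 2.13 in the batches. *Tuba1c* was at 9.73 and 8.75 CPM with GFP, 12.5 and 9.88 with YAP6SA, and 20.3 and 20.9 with YAP5SA. Here the YAP5SA libraries were close to each other, and the change was 1.16 (SE 0.24, FDR 0.00845).

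*Tuba4a* and *Tuba8*, the α-tubulin genes known for their use in adult striated muscle, fell. *Tuba4a* was at 326 and 331 CPM with GFP, 254 and 281 with YAP6SA, and 173 and 109 with YAP5SA. The 3 groups did not overlap, with GFP highest and YAP5SA lowest. The log2 fold change in YAP5SA OE CMs was -1.24 (SE 0.21, FDR 0.00344), with -0.91 in batch 1 and -1.60 in batch 2. *Tuba8* stood at 33.4 and 34.7 CPM with GFP, 34.5 and 30.5 with YAP6SA, and 13.7 and 6.45 with YAP5SA. GFP and YAP6SA libraries overlapped, and both YAP5SA libraries were below them. Its log2 fold change was -1.82 (SE 0.28, FDR 0.00221), or -1.28 and -2.42 within the batches.

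**Figure D2:**
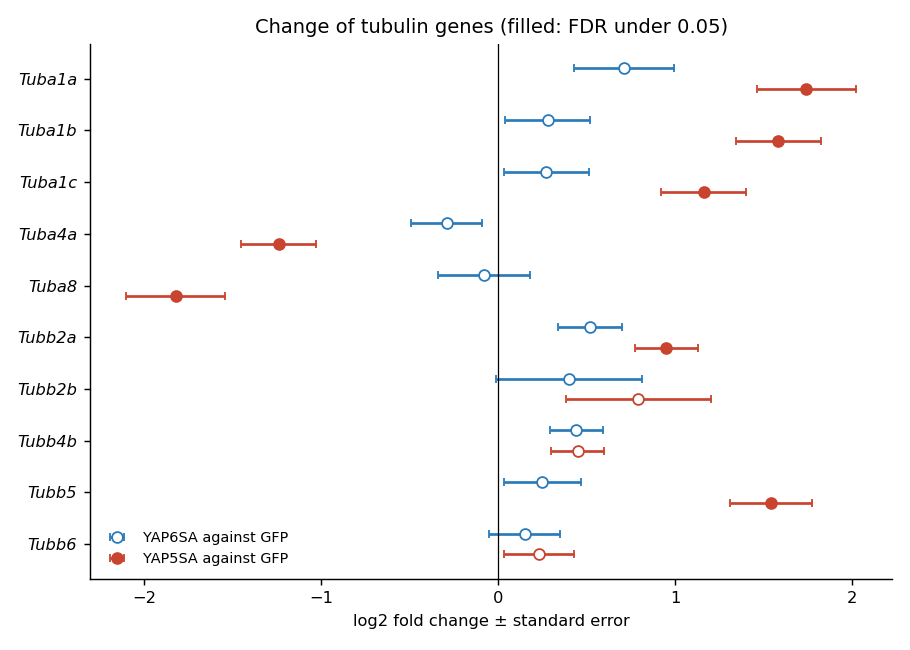
Log2 fold change against GFP (horizontal axis) with its standard error for each tubulin gene, in blue for YAP6SA and red for YAP5SA, filled where the FDR was under 0.05. For YAP5SA, *Tuba1a*, *Tuba1b*, *Tuba1c*, *Tubb2a* and *Tubb5* lie to the right and *Tuba4a* and *Tuba8* to the left with filled points, and no YAP6SA point is filled.

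The α-tubulin mRNA pool was next described by its summed CPM and by its make-up. Summed over the 5 α genes, the level was 438 and 439 CPM with GFP, 406 and 400 with YAP6SA, and 360 and 407 with YAP5SA. YAP5SA was below GFP in both batches, at a ratio of means of 0.874, and YAP6SA at a ratio of 0.918. With plain CPM, without TMM factors, the YAP5SA ratio was 0.932, and it was 1.03 in batch 2, above GFP. These sums are not corrected for length, and *Tuba4a* (3701 exonic bases) weighs more in them than *Tuba1a* (1803) or *Tuba1b* (1875). From GFP to YAP5SA, mean RPKM went from 88.7 to 38.1 for *Tuba4a* and from 15.0 to 4.45 for *Tuba8*. It went from 22.7 to 69.4 for *Tuba1b*, 13.6 to 45.2 for *Tuba1a* and 4.04 to 9.02 for *Tuba1c*. The lower sum therefore does not show that there were fewer α-tubulin mRNAs. Within the pool, each isotype was expressed as its share of the α counts per kilobase of exon. *Tuba4a* made up 61.6 ± 0.878% with GFP, 51.3 ± 6.14% with YAP6SA and 24.0 ± 11.9% with YAP5SA. The YAP5SA libraries differed from each other, at 32.4% in batch 1 and 15.6% in batch 2, and both were below every other library. The 3 *Tuba1* genes together made up 28.0 ± 1.20% with GFP, 38.5 ± 5.75% with YAP6SA and 73.1 ± 13.8% with YAP5SA. Their share was thus 45.1 percentage points higher in YAP5SA than in GFP, by 34.5 points in batch 1 and by 55.7 in batch 2. Counted per library, it was 28.8% and 27.1% with GFP, 42.6% and 34.5% with YAP6SA, and 63.4% and 82.8% with YAP5SA, so the 3 groups did not overlap.

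Single α isotypes followed the same split. *Tuba1b* made up 15.7% of the α pool in GFP and 40.8% in YAP5SA OE CMs, and *Tuba1a* 9.44% and 26.8%. *Tuba8* made up 10.4% and 2.86%, and its share in YAP6SA OE CMs was 10.2%. An exact two-sided permutation test of 2 libraries against 2 cannot give a p under 0.333, and each of these YAP5SA differences gave that value. Counting length only over windows of 150 bases unique to a gene, a choice made after seeing the data, gave *Tuba1* shares of 30.3% with GFP, 41.3% with YAP6SA and 74.7% with YAP5SA. With windows of 100 bases they were 37.9%, 49.5% and 80.4%. The *Tuba8* share was smaller by these measures, at 5.16% with GFP and 1.34% with YAP5SA for windows of 150 bases, and 4.60% and 1.05% for 100. These are shares of nuclear mRNA, and tubulin protein and its tyrosination were not measured here.

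**Figure D3:**
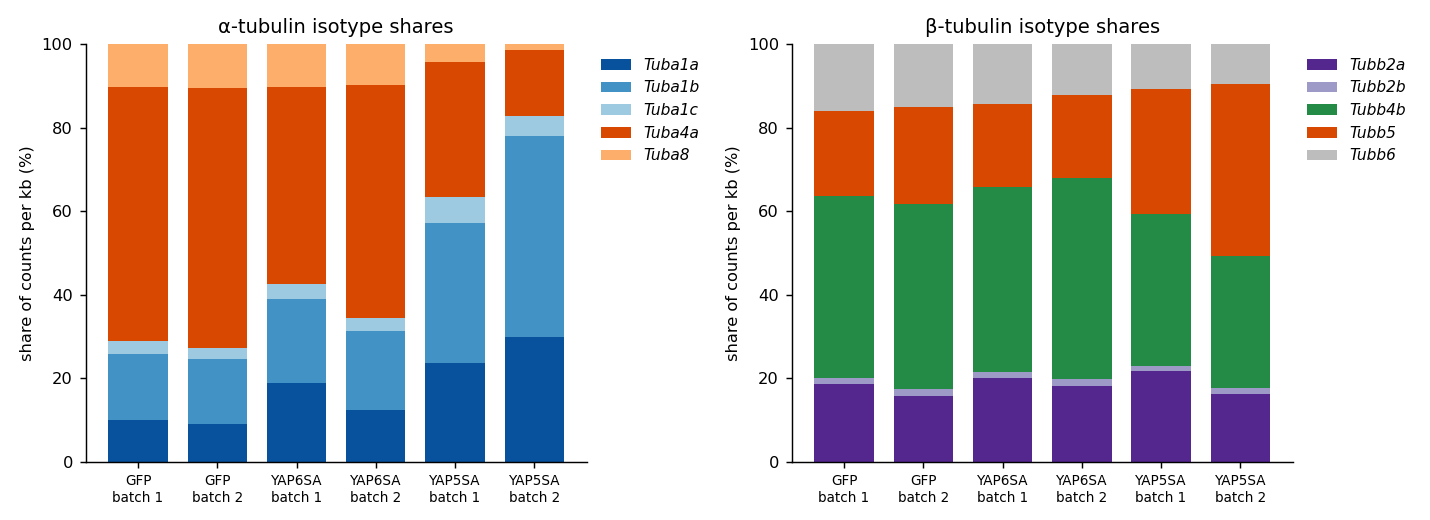
Share of each isotype in the counts per kilobase of its family (vertical axis, percent), for α-tubulin on the left and β-tubulin on the right, in the 6 libraries. The 3 *Tuba1* genes in blue fill 27.1% to 28.8% of the α bar in GFP and 63.4% to 82.8% in YAP5SA, where *Tuba4a* fills 15.6% to 32.4%.

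Among the β genes, *Tubb5*, the β-tubulin of proliferating cells, had the largest log2 fold change in YAP5SA OE CMs against GFP. It was at 57.2 and 62.7 CPM with GFP, 75.6 and 65.8 with YAP6SA, and 127 and 229 with YAP5SA. Both YAP5SA libraries lay above the rest, and the YAP6SA libraries lay just above GFP. The log2 fold change in YAP5SA OE CMs was 1.54 (SE 0.23, FDR 0.0019), with 1.15 and 1.87 in the batches. *Tubb2a* was at 25.3 and 20.7 CPM with GFP, 37.1 and 29.2 with YAP6SA, and 44.6 and 43.5 with YAP5SA. Its groups again formed 3 steps without overlap, and the YAP5SA change was 0.95 (SE 0.18, FDR 0.00625). *Tubb2b*, its neighbour and near copy, had only 46 to 106 counts in a library. Its log2 fold change was 0.79 (SE 0.41, FDR 0.194), which did not pass the threshold.

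*Tubb4b*, the β-tubulin found in nearly all cells and in cilia, differed from this pattern. It was at 76.6 and 75.4 CPM with GFP, 106 and 100 with YAP6SA, and 97.3 and 111 with YAP5SA. Both variants lay above GFP and overlapped each other. The log2 fold change was 0.44 for YAP6SA (SE 0.15, unadjusted p 0.0133, FDR 0.693) and 0.45 for YAP5SA (SE 0.15, FDR 0.0527), neither past the threshold. The YAP5SA value passed with a filter of at least 10 counts in every library (FDR 0.049) and with the likelihood ratio test (FDR 0.0468). It was 0.58 without the YAP5SA library of batch 1 and 0.34 without that of batch 2. *Tubb6* was at 32.9 and 30.2 CPM with GFP, 40.3 and 29.8 with YAP6SA, and 33.8 and 39.6 with YAP5SA. YAP6SA overlapped both other groups, and the log2 fold change in YAP5SA OE CMs was 0.23 (SE 0.20, FDR 0.446).

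In summed CPM, likewise not corrected for length, the β pool was larger in both variants. Summed over the 5 β genes it was 194 and 192 CPM with GFP, 263 and 229 with YAP6SA, and 306 and 429 with YAP5SA. The 3 groups did not overlap, and the ratio of means to GFP was 1.27 for YAP6SA and 1.90 for YAP5SA (exact two-sided permutation p 0.333 for each). In YAP5SA OE CMs the ratio to GFP was 1.57 in batch 1 and 2.23 in batch 2. Without *Tuba4a*, the α sum was 110 ± 2.64 CPM with GFP, 135 ± 22.9 with YAP6SA and 242 ± 79.2 with YAP5SA, a ratio of 2.20. Within the β pool, *Tubb5* made up 21.8 ± 1.90% with GFP, 19.8 ± 0.0044% with YAP6SA and 35.4 ± 7.99% with YAP5SA. *Tubb4b* made up 43.9 ± 0.463%, 46.2 ± 2.76% and 34.0 ± 3.43%, and was the largest β share in each GFP and YAP6SA library. In the YAP5SA library of batch 2, *Tubb5* held the largest share, at 41.1% against 31.6% for *Tubb4b*, whereas in batch 1 *Tubb4b* did, at 36.4% against 29.8%. With unique windows of 150 bases the YAP5SA means were 38.6% for *Tubb4b* and 31.0% for *Tubb5*, and with 100 bases 41.7% and 28.3%. With raw counts they were 28.8% and 47.4%, so their order in YAP5SA depended on the length basis. *Tubb6* held 15.6%, 13.4% and 10.3%, and the *Tubb2* genes 18.7%, 20.6% and 20.3%.

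YAP6SA OE CMs were then compared with GFP on the question of what YAP does without TEAD. None of the 10 tubulin genes was called in YAP6SA OE CMs against GFP, where 0.0450% of all genes were called (edgeR quasi-likelihood test), and DESeq2 called none of the 10 either. At an unadjusted p under 0.05 there were 3, *Tuba1a*, *Tubb2a* and *Tubb4b*, against 5.93% of all genes. *Tuba1a* had a log2 fold change of 0.71 (SE 0.28, unadjusted p 0.0284, FDR 0.773) and *Tubb2a* of 0.52 (SE 0.18, unadjusted p 0.0156, FDR 0.703). In the YAP6SA library of batch 1 *Tuba1a* stood well above its partner, and without that library its log2 fold change was 0.17. In a fit of only the 4 GFP and YAP6SA libraries, *Tuba1a* was called with 0.69 (FDR 0.0272) and was the only tubulin called, with 2.07% of all genes called. It was also called when the YAP5SA library of batch 1 (FDR 0.0318) or that of batch 2 (FDR 0.0368) was left out. The other 7 tubulin genes had log2 fold changes between -0.29 for *Tuba4a* and 0.40 for *Tubb2b*. Leaving out 1 YAP6SA library or the other gave -0.54 and -0.07 for *Tuba4a*, and 0.10 and 0.67 for *Tubb2b*. The median over the 10 was 0.28, beside 0.00 over all genes. Both YAP6SA libraries lay above both GFP libraries for 7 tubulin genes and below them for *Tuba4a*, while 34.3% of all genes were separated in this way.

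Directly compared, YAP5SA OE CMs differed from YAP6SA OE CMs in 6 tubulin genes, in a comparison that called 14.7% of all genes. *Tuba1b* was higher by 1.30 on the log2 scale (SE 0.24, FDR 0.00773), *Tubb5* by 1.29 (SE 0.23, FDR 0.00588), *Tuba1a* by 1.02 (SE 0.28, FDR 0.0355) and *Tuba1c* by 0.89 (SE 0.24, FDR 0.0324). *Tuba8* was lower, with -1.74 (SE 0.28, FDR 0.00357), and so was *Tuba4a*, with -0.95 (SE 0.21, FDR 0.0147). *Tubb2a* (0.42, FDR 0.14), *Tubb2b* (0.39, FDR 0.556), *Tubb6* (0.08, FDR 0.831) and *Tubb4b* (0.01, SE 0.15, FDR 0.972) did not pass the threshold, which does not show that they were alike. This comparison leaned on the YAP6SA library of batch 2. Without it only *Tuba8* was called (-1.60, FDR 0.0264), and *Tuba1b* had 0.98 (FDR 0.106) and *Tubb5* 0.93 (FDR 0.0925), while 396 of all genes were called in place of 1956. Within the batches, *Tuba1a* differed by 0.31 and 1.72, *Tuba1b* by 0.73 and 1.82, and *Tubb5* by 0.74 and 1.80. Leaving out the YAP6SA library of batch 1 ended the call of *Tuba1c* (1.04, FDR 0.111), and leaving out the YAP5SA library of batch 2 ended those of *Tuba1a* (0.44, FDR 0.223) and *Tuba1c* (0.76, FDR 0.116), with 0.78 for *Tuba1b* and 0.84 for *Tubb5*, both called. Without the batch term, *Tuba1a* (FDR 0.0544) and *Tuba1c* (FDR 0.0533) lost the call. Both variants share the GFP libraries in their own comparisons.

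Since the variants differ in TEAD binding, the promoters of the members were searched for short sequences. RefSeq promoters of GRCm38.p6, from 250 bases before to 50 after the transcription start, were found for 8 of the 10 genes, all but *Tubb2b* and *Tubb6*, and read on both strands. The core of the TEAD motif, GGAATG, was found in 1 of the 8, *Tubb5*, and in 14.7% of all 32851 promoters. CCAAT, the letters bound by the factor NF-Y, was found in 4 of the 8, *Tuba1a*, *Tuba1c*, *Tubb4b* and *Tubb5*, and in 37.4% of all. Shown are the promoters of *Tubb5*, which differed between YAP5SA and YAP6SA, and of *Tubb4b*, which was not called between them (0.01, FDR 0.972). CCAAT and GGAATG or their reverse complements are in capitals.
Tubb5: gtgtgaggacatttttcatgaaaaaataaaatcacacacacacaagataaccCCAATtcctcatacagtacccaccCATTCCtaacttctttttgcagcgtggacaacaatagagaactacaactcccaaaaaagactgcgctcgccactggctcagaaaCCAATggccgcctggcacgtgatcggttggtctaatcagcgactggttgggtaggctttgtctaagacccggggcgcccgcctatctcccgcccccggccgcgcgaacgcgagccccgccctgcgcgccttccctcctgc
Tubb4b: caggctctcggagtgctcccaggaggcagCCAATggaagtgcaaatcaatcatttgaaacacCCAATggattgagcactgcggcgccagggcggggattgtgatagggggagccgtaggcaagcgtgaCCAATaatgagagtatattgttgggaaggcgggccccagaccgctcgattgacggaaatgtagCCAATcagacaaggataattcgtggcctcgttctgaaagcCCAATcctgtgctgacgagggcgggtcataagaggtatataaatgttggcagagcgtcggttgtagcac
The *Tubb5* promoter (chr17:35838252-35838551, minus strand) held the TEAD core as CATTCC at position -174 from the start, and CCAAT at -198 and -90. The *Tubb4b* promoter (chr2:25224653-25224952, minus strand) held CCAAT 5 times, at -221, -188, -122, -59 and -19. It also held TTTGAA, the cell cycle homology region of mitotic genes, which no other member promoter had and which occurred in 17.9% of all. The E2F core TTCCCGC (4.60% of all promoters), the CArG box bound by SRF (1.63%) and the MEF2 site (3.19%) were in none of the 8. A match is a description of these letters and not a measured binding site, and their absence from these windows says nothing of the factors.

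The other tubulin genes were mostly scarce in these nuclei. *Tubal3* and *Tubb1*, the latter a platelet β-tubulin, had 0 counts in all 6 libraries, which allows up to 0.153 to 0.206 CPM per library at 3 counts. *Tuba3a* and *Tuba3b*, testis α-tubulins, had at most 9 counts in a library, and the neuronal *Tubb3* at most 12. Of the 10 other tubulin genes 5 passed the filter, and none was called in YAP5SA or YAP6SA OE CMs against GFP, where 22.0% and 0.0450% of all genes were. At an unadjusted p under 0.05 there were 2 and 0 of the 5, beside 36.4% and 5.93% of all genes. *Tube1*, ε-tubulin of the centriole, was at 6.10 and 6.20 CPM with GFP, 5.49 and 3.88 with YAP6SA, and 11.7 and 12.0 with YAP5SA. The YAP5SA libraries were above all others, with a log2 fold change of 0.95 against GFP (SE 0.31, FDR 0.0506; called in 3 of 7 alternative fits), and 1.35 against YAP6SA (SE 0.31, FDR 0.019). *Tubg1*, γ-tubulin of the nucleating ring, had -0.12 against GFP (SE 0.20, FDR 0.705), and *Tubd1*, δ-tubulin, had -0.55 (SE 0.22, FDR 0.0983). *Tubb4a* (0.46, FDR 0.594) and *Tubg2* (0.24, FDR 0.775) had few counts.

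Genes that act on tubulin were followed in 9 further lists. In YAP6SA OE CMs against GFP none of their 123 kept genes was called by edgeR's quasi-likelihood test or by DESeq2, and 5 had an unadjusted p under 0.05 (4.07%, beside 5.93% of all genes). In YAP5SA OE CMs against GFP, of the 21 genes for folding new tubulin, 2 rose and 1 fell. These 14.3% lie below the 22.0% of all genes called in that comparison, and the list's median was 0.42. Those called were the chaperonin subunits *Cct5* (0.73, SE 0.17, FDR 0.013) and *Cct4* (0.48, SE 0.15, FDR 0.0423), and the cofactor *Tbcd*, which helps assemble the dimer (-0.57, SE 0.18, FDR 0.0481). In the fit of the 4 libraries compared, *Cct4* (FDR 0.0826) and *Tbcd* (FDR 0.0805) did not pass. *Ttc5*, the autoregulation factor, was at 115 and 105 CPM with GFP, 103 and 106 with YAP6SA, and 83.1 and 73.8 with YAP5SA. It fell in YAP5SA OE CMs by 0.48 on the log2 scale (SE 0.14, FDR 0.0385), although this did not pass in the fit of the 4 libraries compared (FDR 0.0708). Its partners *Scaper* (-0.59, FDR 0.1) and *Cnot11* (0.46, FDR 0.162) did not pass.

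Of the 18 kept genes for tubulin modification (25 listed), 1 rose and 1 fell in YAP5SA OE CMs, or 11.1% called beside 22.0% of all genes. *Atat1*, which acetylates α-tubulin, had 0.73 (SE 0.21, FDR 0.0336, but 0.0561 in the 4-library fit) and *Agtpbp1*, which trims glutamates from tubulin tails, had -0.68 (SE 0.15, FDR 0.0127). The genes of the tyrosine cycle did not pass the threshold. The ligase *Ttl* was at 13.1 and 9.73 CPM in GFP and 10.5 and 15.0 in YAP5SA, with overlapping groups and a log2 fold change of 0.17 (FDR 0.708). The vasohibins *Vash1* (-0.17, FDR 0.82) and *Vash2* (-0.27, FDR 0.428) did not pass, nor did their cofactor *Svbp* (1.06, SE 0.37, FDR 0.0646), which was called in 2 of 7 alternative fits (lowest FDR 0.0114). *Ttll1*, a polyglutamylase, had the lowest p of the list in YAP6SA OE CMs, with 0.71 (unadjusted p 0.0198, FDR 0.708), and was lower in YAP5SA than in YAP6SA (-1.13, FDR 0.0187). In the 4-library fit of YAP6SA and GFP it was called (FDR 0.0381).

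The proteins that bind the microtubule lattice held the largest single change of these lists. *Map6*, a microtubule stabilizer known from neurons, was at 1.63 and 2.02 CPM with GFP, 2.29 and 1.70 with YAP6SA, and 8.88 and 33.1 with YAP5SA. The YAP5SA libraries were far above the other 4 and far from each other, with a log2 fold change of 3.35 (SE 0.51, FDR 0.0023). *Mapt*, which encodes tau, went the other way, from 416 and 296 CPM in GFP and 245 and 279 in YAP6SA to 165 and 56.8 in YAP5SA. Its log2 fold change was -1.79 (SE 0.32, FDR 0.00502). *Map7d1*, a recruiter of kinesin, fell by 0.86 on the log2 scale (SE 0.20, FDR 0.0137), and *Map4*, the main lattice protein of non-neuronal cells and named here after its value was seen, fell by 0.58 (SE 0.17, FDR 0.0345, but 0.0659 in the 4-library fit). Of the 10 genes of this list, 1 rose and 3 fell, beside 12.8% of all genes higher and 9.18% lower. Of 10 kept plus-end genes, 3 fell (9.18% of all genes did), *Slain2* (-0.77, FDR 0.0145), *Clasp1* (-0.70, FDR 0.0296) and *Clip1* (-0.68, FDR 0.0189), and none rose. In the 4-library fit *Clasp1* (FDR 0.0565) and *Clip1* (FDR 0.065) did not pass.

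Genes of the mitotic spindle rose, as did the *Tuba1* genes and *Tubb5*. Of 16 spindle motors and bundlers 15 rose in YAP5SA OE CMs against GFP and none fell, or 93.8% called higher beside 12.8% of all genes, with a median log2 fold change of 1.84. *Kif15*, which holds spindle poles apart, was at 16.3 and 8.95 CPM with GFP, 18.1 and 13.0 with YAP6SA, and 45.9 and 53.1 with YAP5SA (2.02, SE 0.27, FDR 0.0011). YAP5SA was above all other libraries, and YAP6SA overlapped GFP. *Hmmr*, a spindle assembly factor, had 2.05 (SE 0.47, FDR 0.0133) and *Prc1*, the bundler of the midzone, 2.01 (SE 0.34, FDR 0.00353). Of 11 kept genes that destabilize or sever microtubules 5 rose and none fell (45.5% higher, beside 12.8% of all genes), namely the depolymerizing kinesins *Kif2c* (1.81) and *Kif18b* (1.72), *Fignl1* (1.49) and, named after their values were seen, the tubulin-sequestering *Stmn1* (1.41) and *Kif18a* (1.18). Of 19 nucleation genes 4 rose, the augmin subunits *Haus3* (0.92) and *Haus6* (0.87), *Cdk5rap2* (0.90) and *Tubgcp3* (0.68, named after its value was seen), and *Akap9* fell (-0.50, likewise, with an FDR of 0.0703 in the 4-library fit), so that 26.3% were called, near the 22.0% of all genes. Of 15 kept transport motor genes *Dynll1* rose (0.70), and *Kif1b* (-0.78), *Klc4* (-0.59) and *Kif3a* (-0.53, named after its value was seen) fell, and these 26.7% are again near the 22.0% of all genes. In the 4-library fit *Klc4* (FDR 0.057) and *Kif3a* (FDR 0.0594) did not pass. These counts leaned on the GFP library of batch 2. Without it fewer genes were called in every one of these lists, and only the spindle, destabilizing and lattice lists kept any call. Fewer were also called over all genes, so the loss was not particular to these lists.

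**Figure D4:**
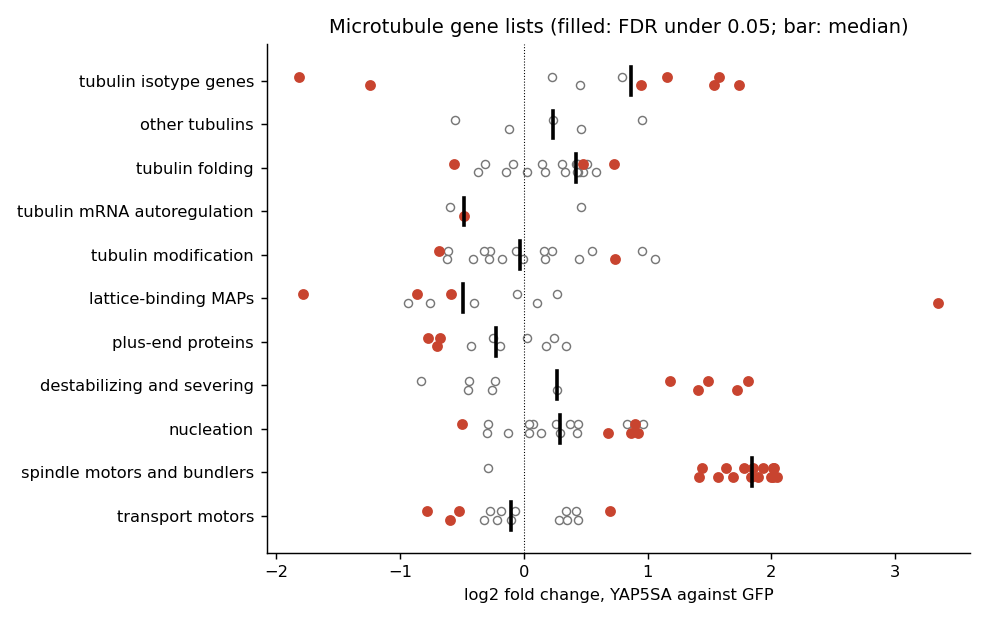
Log2 fold change in YAP5SA OE CMs against GFP (horizontal axis) of each kept gene of the tubulin isotypes and of 10 microtubule lists, filled where the FDR was under 0.05, with a bar at each median. The spindle list stands at a median of 1.84 with 15 of 16 points filled, and the tubulin isotype genes lie on both sides of 0.

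Markers of the cells in the nuclei were set beside these results. The 8 CM markers summed to 50200 and 67100 CPM with GFP, 48700 and 62200 with YAP6SA, and 42700 and 31300 with YAP5SA, so both YAP5SA libraries were below the others. *Myh6* had the highest mean CPM over the 6 libraries, at 17900 and 28000 in GFP and 13100 and 8670 in YAP5SA. In YAP5SA *Tnnt2* stood above it, at 14600 and 10700 CPM. Of the 8, only *Ryr2* was called in YAP5SA OE CMs against GFP (-0.81, FDR 0.0455), a call not made in the 4-library fit (FDR 0.0986), and the median was -0.55. *Tuba4a* and *Tuba8*, as muscle isotypes, moved in the direction of these markers, and in bulk nuclei fewer CM nuclei and less RNA per nucleus cannot be told apart. The part of the CM markers in the tubulin values was not tested.

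Markers of other cells were counted at lower levels, and the share of nuclei from such cells was not measured. The 8 fibroblast markers summed to 1370 and 860 CPM with GFP, 1780 and 984 with YAP6SA, and 1500 and 906 with YAP5SA, with *Col3a1* the most abundant and none called. The 7 endothelial markers summed to 596 and 466, 691 and 479, and 613 and 476 CPM in the same order, with *Egfl7* the most abundant and none called. In both lists the batches differed more than the groups. The 8 macrophage markers summed to 56.9 and 82.5 CPM in GFP, 72.2 and 95.7 in YAP6SA, and 82.0 and 117 in YAP5SA, with *C1qa* called (0.96, FDR 0.0228) and *Csf1r* the most abundant. Of the 6 mural markers *Abcc9*, which CMs also express, was the most abundant and was called lower (-0.81, FDR 0.0287). The mural sum was 498 and 568 CPM in GFP, 566 and 588 in YAP6SA, and 429 and 336 in YAP5SA. *Abcc9* alone was at 272 and 387 CPM in GFP and 216 and 156 in YAP5SA, and carried most of that fall. In YAP5SA OE CMs against GFP, only *Rgs5* of the 6 was above 0 (0.70, FDR 0.0604, called in 2 of 7 alternative fits). The 5 erythroid markers summed to 24.8 to 64.0 CPM in the 6 libraries, led by *Hbb-bs*. Of the markers of neurons and glia, *Dbh* was called higher (0.90, FDR 0.0329, but 0.0632 in the 4-library fit) and *Th* was at 0 in all libraries. The part of these cells in the tubulin values was not tested.

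As a sign of RNA quality, the 8 mRNAs of the mitochondrial genome, which nuclei do not make, summed to 11200 and 11400 CPM with GFP, 17000 and 21600 with YAP6SA, and 18500 and 25300 with YAP5SA. Both variants lay above GFP, with *mt-Co1* the most abundant. In YAP5SA 8 of 8 were called higher, beside 12.8% of all genes, and in YAP6SA none was called, beside 0.0450%. In the 4-library fits 5 were called in YAP5SA, beside 2512 of all 13323 genes, and 6 in YAP6SA, beside 276. Of the tubulin genes, 7 likewise had both libraries of both variants above GFP, namely *Tuba1a*, *Tuba1b*, *Tuba1c*, *Tubb2a*, *Tubb2b*, *Tubb4b* and *Tubb5*, as was true of 9.89% of all genes. The part of cytoplasmic RNA in the tubulin values was not tested. The nuclear RNAs *Malat1*, *Neat1* and *Meg3* summed to 4840 and 6000 CPM in GFP, 6200 and 5020 in YAP6SA, and 4990 and 5210 in YAP5SA, with *Neat1* the most abundant and *Meg3* called higher in YAP5SA (1.04, FDR 0.0128).

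Finally, the genes whose pattern was most like that of the leading α and β isotype were taken by the Pearson correlation of log2 CPM over the 6 libraries after removing the batch means. The 6 values share their libraries and 3 groups, and the coefficients are a description only. For *Tuba4a* the closest included *Pygm*, the muscle glycogen phosphorylase (r = 0.9997, log2 fold change -1.16 in YAP5SA OE CMs), *Narfl* (0.9997), *Etfdh*, an electron carrier of fatty acid oxidation (0.9995), and *Tacc2* (0.9991). For *Tubb4b* they were *Tomm20*, a receptor of mitochondrial protein import (r = 0.9973), *Rcan1*, a calcineurin regulator (0.9970), *Cep112* (0.9967), *Dync1li2*, a dynein chain (0.9958), and *Rhoc*, a small GTPase (0.9956). Of the latter 5, *Rcan1* was called in YAP5SA OE CMs (0.89, FDR 0.0049), and its value in YAP6SA OE CMs was 0.80 (FDR 0.225).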

How the data were processed

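Poly-A RNA of PCM1-bound nuclei was sequenced from 6 non-directional libraries. The authors mapped reads with STAR to mm10 (Ensembl 94) and deposited raw counts per gene, without normalization, leaving out multi-mapping and ambiguous reads (5.79% to 6.31% of reads were ambiguous). The 4 entries naming no gene were dropped. No library was a copy of its replicate, as chi-square over its degrees of freedom was 27.7 for GFP, 31.5 for YAP6SA and 43.6 for YAP5SA.

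Counts of the 13323 genes kept were modelled by edgeR 4.0.16 under R 4.3.3 (TMM, quasi-likelihood F test, terms for group and batch, 6 libraries) and adjusted by Benjamini-Hochberg at 0.05. The SE is the size of the log2 fold change divided by the square root of F. The labels give each library's batch, which pairs the libraries, and the deviations of libraries of a batch had correlations of 0.368, 0.0985 and 0.175 for GFP with YAP6SA, GFP with YAP5SA and YAP6SA with YAP5SA. Within-batch values are log2 differences with 0.5 counts added. The pipeline was tested on simulated data. RLE scaling, other filters, DESeq2 1.42.0, the likelihood ratio test, no batch term, 4-library fits and libraries left out were tried. A count of 0 allows up to 3, for counting error only. From lists of microtubule genes, up to 3 genes called in YAP5SA against GFP with equal sign in both batches were named by size of change, with the lowest p in YAP6SA and the genes of the tyrosine cycle and autoregulation. The members and lists were chosen with earlier results of these data known. Some genes and sequences that the rules selected are not reported here. Gene models were GENCODE M21 and promoters RefSeq GRCm38.p6.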

Additional observations from a re-analysis of the deposited data

How the results depend on the processing

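Over RLE scaling, no filter, at least 10 counts in every library, DESeq2, the likelihood ratio test, no batch term and 4-library fits, 205 of 210 log2 fold changes of tubulin genes kept their direction and side of the threshold, 3 gained a call and 2 lost it. The 7 tubulin genes called in YAP5SA against GFP kept their calls in each of these, the highest FDR being 0.0166 (*Tubb2a*). For YAP6SA against GFP, the tubulin count of 0 became 1 with only the 4 libraries compared, and the count over all genes, 6 at first, was 145 without a filter, 54 with DESeq2, 82 with the likelihood ratio test, 276 with 4 libraries and 0 without the replicate block. Without the block, the direct comparison of the variants called 1152 genes in place of 1956, and 4 tubulin genes in place of 6. The block changed no other tubulin call. Of 150 counts of list genes called, 129 stayed within 1.5 times. The same held for 121 of 180 with libraries left out, and 59 moved by more. With a library left out, the lone library of its group is assumed to vary like the others, and the tubulin count ran from 0 to 1 for YAP6SA against GFP, 5 to 8 for YAP5SA against GFP and 1 to 7 for YAP5SA against YAP6SA. The count over all genes ran from 6 to 213, 738 to 4863 and 396 to 4160. The 5 arose without the GFP library of batch 2, where *Tuba1c* (FDR 0.0844) and *Tubb2a* (FDR 0.0816) were lost, and the 1 without the YAP6SA library of batch 2. Direction turned, for genes not called, in YAP6SA against GFP for *Tuba1b* (-0.06 to 0.57), *Tuba8* (-0.39 to 0.27, with 0.06 without the YAP6SA library of batch 1), *Tubb5* (-0.13 to 0.58) and *Tubb6* (-0.11 to 0.38), in YAP5SA against GFP for *Tubb6* (-0.02 to 0.48), and in the direct comparison for *Tubb4b* (-0.10 to 0.14) and *Tubb6* (-0.16 to 0.34). The cause was not tested. Of 108 share differences, 97 moved by less than the spread between libraries with another length basis, 10 moved by more and 1 moved by more and turned, the *Tuba8* share in YAP6SA against GFP at 0.313 points with raw counts (-0.274 per kilobase). Of the 97, 8 turned within that spread, all of *Tubb2a*, *Tubb2b* or their sum. With a library left out, 13 of 144 share differences turned, each within that spread. The *Tubb2a* share in YAP5SA against GFP, for example, ran from -1.14 to 4.45 points. The share of the *Tuba1* genes in YAP5SA against GFP stayed between 35.4 and 54.9 points higher with any library left out. Unique positions over the whole genome were not run, and windows unique among transcripts, chosen after seeing the data, took their place. *Tubb2b* had the lowest depth of the tubulin genes, with 46 to 106 counts per library, and the part of depth in its FDR was not tested.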
